A study of Mus musculus with 15 samples.

Results

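The proto-oncogene Myc (protein-coding) and its neighbour Pvt1 (a long non-coding RNA gene) were described together with the stretch of chromosome 15 around them, from 500 kb before the start of Myc to 2 Mb after its end. In the mouse build GRCm38, Myc occupied chr15:61985341-61990361 and Pvt1 chr15:62037986-62260215, so that Pvt1 started 52.6 kb and ended 274.9 kb after the start of Myc. The whole stretch, chr15:61485341-63990361, measured 2505021 bp. It held 29 RefSeq genes, of which 6 were protein-coding, and 553 of the 334243 intervals in 12 peak lists.

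All lists came from EL4 cells, a mouse T lymphoblast line (ATCC TIB-39, labelled as strain C57BL/6N) for which the labels name no drug and no genetic change. ChIP-seq (sequencing of DNA bound to a modified histone) was run for H3K4me3, H3K9ac, H3K27ac, H3K36me2 and H3K27me3, and ATAC-seq marked DNA open to a transposase. Each of these 6 sets had 2 replicates with a list of their own, and the study calls its replicates technical. They came from 1 cell line, so the spread between them does not measure the spread between cultures or animals.

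MYC is a transcription factor of the basic helix-loop-helix leucine zipper family that binds DNA as a dimer with MAX and acts on genes of growth, metabolism and the cell cycle. The gene lies at the edge of a long gene desert, and in blood cells its transcription is known to depend on enhancers far downstream of the gene, beyond Pvt1. H3K4me3 typically lies at active gene starts, H3K9ac and H3K27ac at active starts and enhancers, H3K36me2 over active gene bodies and open intergenic chromatin, and H3K27me3 over chromatin silenced by Polycomb.

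The lists hold positions only, with no score or read count, so the depth behind an interval is unknown and the height of a peak cannot be given. Lists held between 17519 and 46015 intervals. As a check of the labelled cell type, H3K4me3, H3K9ac and H3K27ac intervals lay at the starts of 5 of 5 T cell markers that could be placed (Cd3d, Cd3e, Cd3g, Lck and Tcf7) in both replicates. At the starts of the 3 B cell markers placed (Cd79a, Pax5 and Ebf1) no list had an interval, and at the 3 myeloid markers placed there was 1 interval, a 235 bp H3K27ac interval at Lyz2 in replicate 1. No test between sets was run, since an exact permutation test of 2 against 2 values cannot give a two-sided p below 0.333, and values below are descriptions.

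The map of all intervals showed 4 successive domains of the broad marks, with Myc at the border of the first pair. A domain here joins consecutive intervals of 1 mark across any gap until the other mark is listed. From the left edge, H3K27me3 reached up to 40.1 kb before Myc in replicate 1 and up to 40.3 kb before it in replicate 2. H3K36me2 then ran from 20.9 kb to 1672.9 kb after the start of Myc in replicate 1, and from 1.7 kb to 1677.1 kb in replicate 2. The left end of this domain was sparse and differed between replicates. Between Myc and Pvt1, H3K36me2 covered 2.4 kb in replicate 1 and 10.6 kb in replicate 2, and the replicates shared no base pair there. In replicate 1 the interval at 20.9 kb stood alone, and the next began at 54.1 kb, inside Pvt1. H3K27me3 returned from 1697.9 to 1908.5 kb in replicate 1 and from 1717.3 to 1909.1 kb in replicate 2. H3K36me2 was listed again from 1936.9 kb in replicate 1 and from 1937.9 kb in replicate 2 up to the right edge. Intervals filled 72.7% and 75.3% of the first H3K27me3 domain in replicates 1 and 2. They filled 41.1% and 39.8% of the long H3K36me2 domain and 34.8% and 37.7% of the second H3K27me3 domain.

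**Figure D1:**
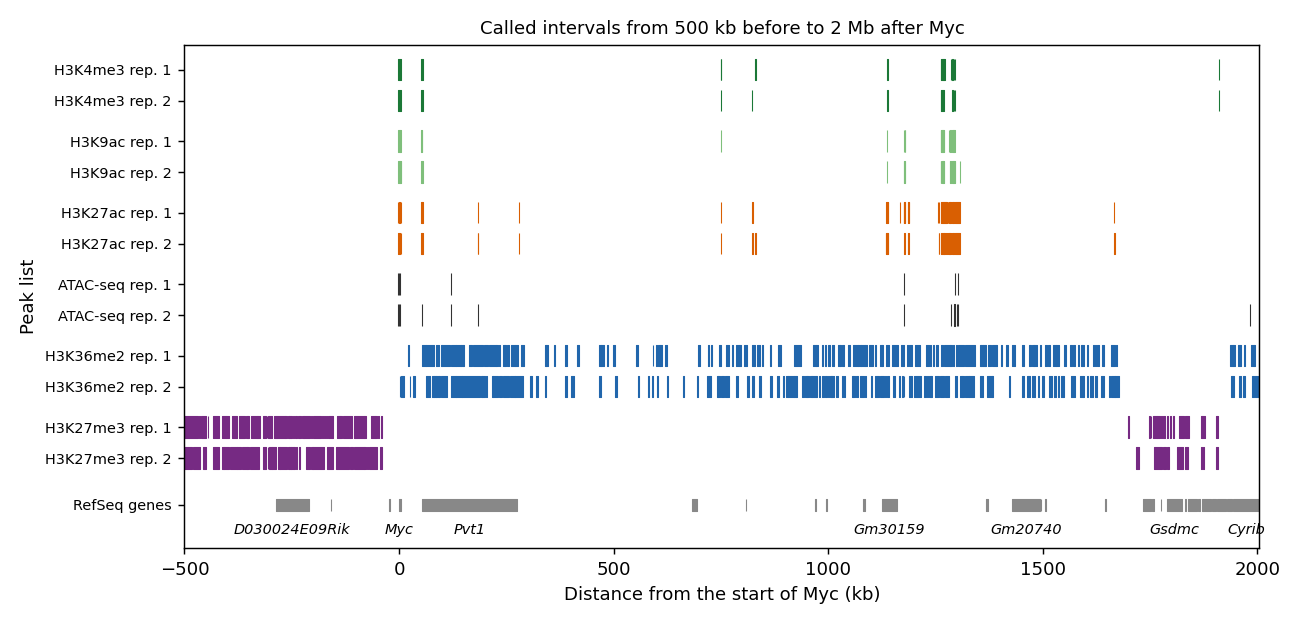
Intervals of the 12 lists along the region, with distance from the start of Myc in kb on the x axis and 1 row for each replicate of each set, above the RefSeq genes in grey. H3K27me3 lies before Myc and around the Gsdmc genes, and H3K27ac gathers near 1300 kb. H3K36me2 intervals, with gaps between them and few before Pvt1, run along the stretch from Myc to the Gsdmc genes.

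Replicates placed the borders of these domains between 0.2 and 19.4 kb apart. The end of the first H3K27me3 domain differed least, and the start of the second differed most, followed by the start of the long H3K36me2 domain with 19.2 kb. The intervals inside the long domain differed between replicates more than its ends did. H3K36me2 covered 708 kb of the region in replicate 1 and 691 kb in replicate 2 (699 ± 12.1 kb, SD, n = 2), yet the base pairs shared by both replicates were only a fraction of 0.404 of those in either, against 0.568 over the genome. H3K27me3 covered 407 and 418 kb (413 ± 7.22 kb, SD, n = 2), with a shared fraction of 0.705 in the region and 0.498 over the genome.

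No base pair of the region was listed for both H3K27me3 and H3K36me2, in any of the 4 pairings of replicates or with replicates merged. Over the whole genome the merged lists overlapped in 404 regions with 915796 bp, and 0.984% of H3K36me2 intervals touched H3K27me3, so that 0 of the 140 merged intervals here lay near the background. The gap without either mark that contains the start of Myc measured 61 kb in replicate 1 and 42 kb in replicate 2. At the far border, between the long H3K36me2 domain and the H3K27me3 domain of the Gsdmc genes, the gap measured 25 kb in replicate 1 and 40.2 kb in replicate 2.

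With both replicates merged, H3K36me2 covered 39.8% of the region, 19.1% of chromosome 15 and 14.8% of the genome. Cut into windows of the same length, the genome gave 1040 windows with a median of 254.5 kb of H3K36me2, and 8.27% of them held at least the 996 kb found around Myc. These 996 kb join replicates of 708 and 691 kb whose shared fraction was lower here (0.404) than over the genome (0.568). Windows were not ranked within a single replicate. H3K27me3 covered 19.3% of the region, 27.2% of chromosome 15 and 14.1% of the genome, and 30.4% of windows held at least as much. Coverage by both broad marks was thus higher on chromosome 15 than over the genome, and the part of this in the values around Myc was not tested. Among the narrow sets, at least as many kb as in the Myc region were found in 18.5% of windows for H3K27ac, 33.2% for H3K9ac, 47.7% for H3K4me3 and 64.4% for ATAC-seq. Within chromosome 15 alone, 31.7% of windows held at least as much H3K27ac and 56.1% at least as much H3K27me3.

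Coverage in bins of 100 kb varied within each domain. In the 4 bins from 500 to 100 kb before Myc, H3K27me3 covered between 67.6 and 83.8 kb per bin and replicate. H3K36me2 was highest in the bin from 100 to 200 kb, which lies within Pvt1, with 84.5 kb in replicate 1 and 87.4 kb in replicate 2. Between 300 and 700 kb it covered from 9.6 to 20.9 kb per bin and replicate, and it covered 54.9 and 61.7 kb between 1200 and 1300 kb. The last of these bins also held most H3K27ac, 29.5 kb in replicate 1 and 30 kb in replicate 2. For H3K36me2, the stretches from 100 to 200, 300 to 700 and 1200 to 1300 kb differed from each other by more than the replicates did within these stretches. Within the H3K27me3 bins before Myc, replicates differed about as much as bins, with 67.6 and 78.2 kb from 400 to 300 kb before it. Among the H3K36me2 bins, that from 400 to 500 kb gave 20.9 and 11.6 kb, and that from 900 to 1000 kb gave 32.8 and 61.7 kb. The bin from 1300 to 1400 kb gave 70.7 and 47.7 kb, so replicates of single bins could differ as widely as some of these stretches.

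**Figure D2:**
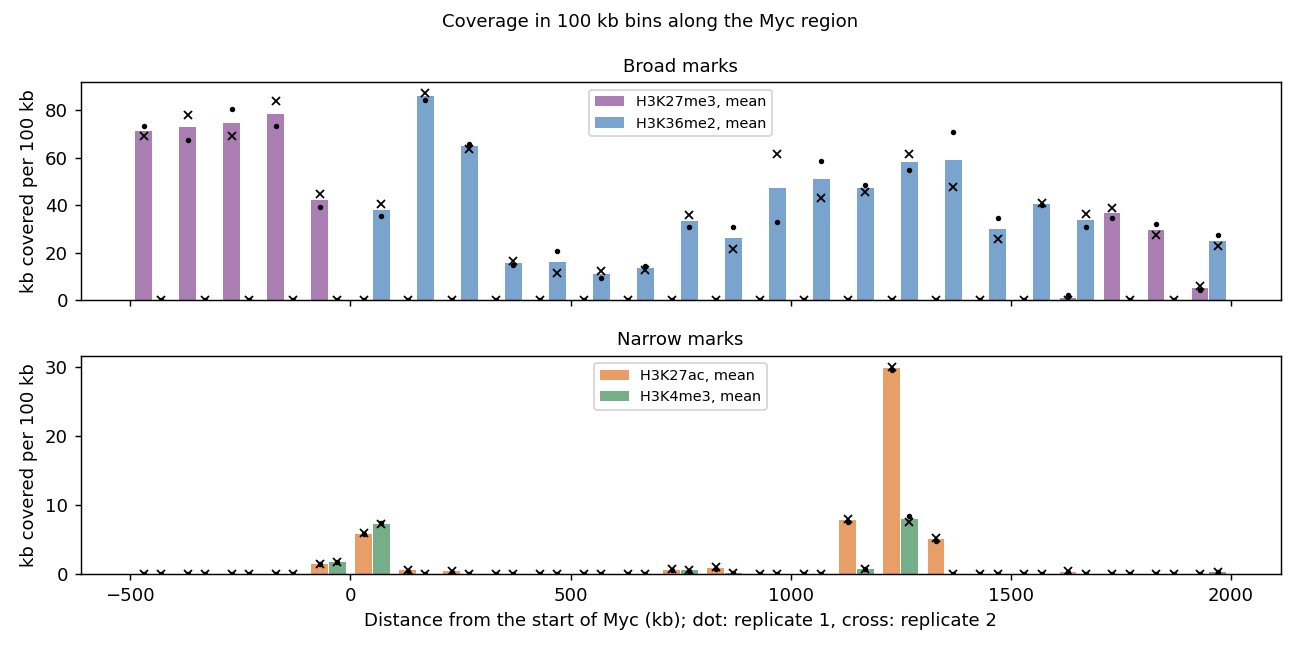
Kilobases covered in each 100 kb bin (y axis, kb) against distance from the start of Myc (x axis, kb) for the broad marks above and for H3K27ac and H3K4me3 below. Bars are means of 2 replicates, drawn side by side within a bin, with replicate 1 as a dot and replicate 2 as a cross. H3K27me3 and H3K36me2 take turns along the stretch, and H3K27ac reaches 29.5 and 30 kb in the bin from 1200 to 1300 kb.

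At Myc itself, all of the sets tied to active starts were listed in both replicates, and H3K27me3 in neither. H3K4me3 formed 1 interval from 1.8 kb before the start to 4.8 kb after it, 6617 bp wide in replicate 1 and 6494 bp in replicate 2. It covered 95.6% and 93.1% of the gene. Among the 18471 merged H3K4me3 sites of the genome it ranked 57 by width, where the median site measured 1394 bp. H3K4me3 at Myc was therefore not confined to the start but ran over nearly the whole gene.

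H3K9ac covered 81% of Myc in replicate 1 and 79.9% in replicate 2, and H3K27ac 69.2% and 70.3%. Both acetyl marks broke into 3 merged intervals, of which the first reached from about 1.5 kb before the start to 2 kb after it. H3K27ac left the stretch from 3.1 to 3.9 kb unlisted in both replicates.

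ATAC-seq listed 3 sites at Myc in both replicates. The site on the start measured 816 bp in replicate 1 and 713 bp in replicate 2, and a smaller site lay 1.6 kb into the gene, 327 and 295 bp wide. The third, 299 and 290 bp wide, began 2.1 kb before the start in replicate 1 and 1.9 kb before it in replicate 2. This upstream site touched H3K4me3 but neither acetyl mark, whereas the other 2 touched all of H3K4me3, H3K9ac and H3K27ac in both replicates. H3K36me2 was listed within Myc in replicate 2 alone, with 1399 bp, and in replicate 1 its nearest interval began at 20.9 kb.

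**Figure D3:**
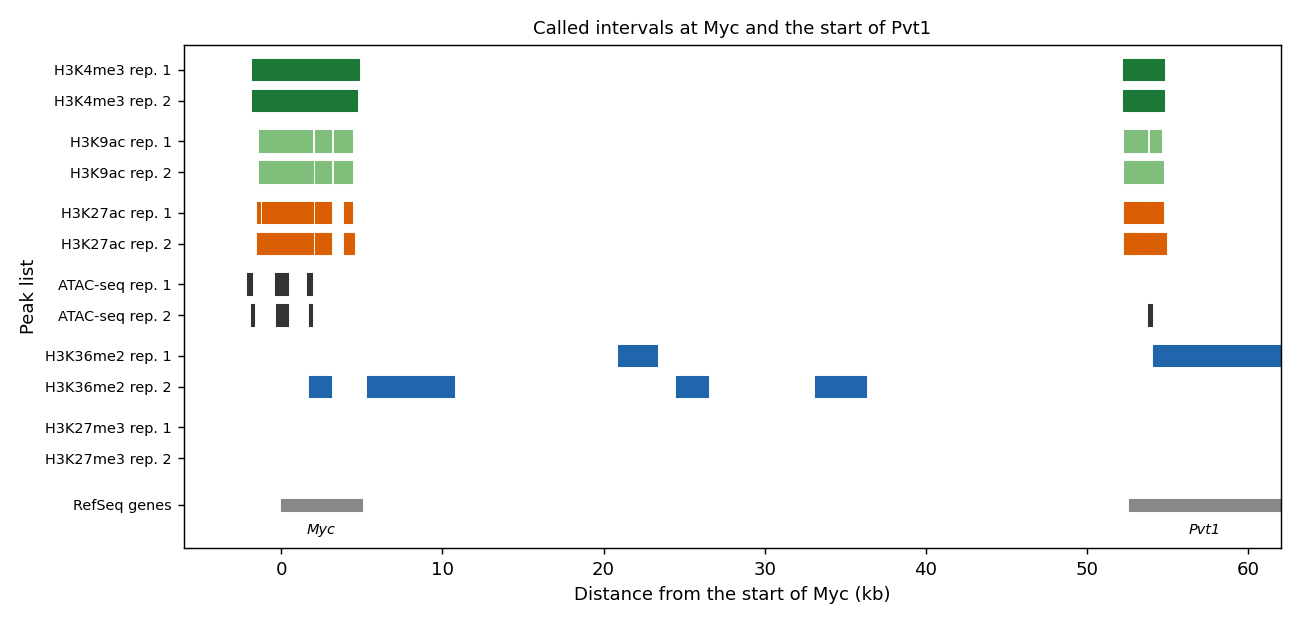
Intervals of the 12 lists from 6 kb before the start of Myc to 62 kb after it (x axis, kb), 1 row for each replicate, with the RefSeq genes in grey. Both starts carry H3K4me3, H3K9ac and H3K27ac in both replicates, ATAC-seq lists 3 sites at Myc in each replicate, and at Pvt1 it lists 1 site in replicate 2.

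Pvt1 gives rise to a long non-coding RNA, and its start was the next one downstream of Myc listed with H3K4me3, H3K9ac and H3K27ac. The marks there were those found at Myc, over a shorter stretch. Its H3K4me3 interval measured 2613 bp in replicate 1 and 2560 bp in replicate 2, and ranked 2369 of 18471 by merged width. H3K9ac and H3K27ac each formed 2 merged intervals, between 52.3 and 54.9 kb. ATAC-seq listed a site of 233 bp at 53.8 kb, 1.15 kb into the gene, in replicate 2 and none there in replicate 1. Within 1 kb either side of the Pvt1 start it covered 0% (mean of both replicates).

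Windows from 3 kb before to 2 kb after a gene start allow both genes to be set against the 26796 genes whose start could be placed. H3K4me3 covered 3818 bp of this window at Myc in both replicates, and 0.892% and 0.851% of genes had at least as much. H3K9ac covered 3396 and 3344 bp (1.16% and 1.26% of genes with at least as much), and H3K27ac 3377 and 3479 bp (1.74% and 1.65%). ATAC-seq covered 1442 and 1298 bp, which 1.09% and 2.7% of genes reached. The start of Myc thus lay among the most widely covered of the genome in each of these 4 sets.

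Coverage at the Pvt1 start was lower than at Myc in every one of these 8 lists. H3K4me3 covered 2414 and 2395 bp there (9.51% and 9.31% of genes with at least as much), H3K9ac 2172 and 2265 bp (8.73% and 7.52%), and H3K27ac 2222 and 2245 bp (8.4% and 8.45%). ATAC-seq covered 0 and 233 bp. H3K36me2 reached the Myc window in replicate 2 with 340 bp and the Pvt1 window in replicate 1 with 585 bp, and H3K27me3 reached neither. Among genes with any coverage the median was between 1593 and 1912 bp for H3K4me3, H3K9ac and H3K27ac, so both genes lay above it.

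Over all genes placed, 35.0% had H3K4me3 in the start window in both replicates, 34.5% H3K9ac, 35.1% H3K27ac, 31.0% ATAC-seq, 21.9% H3K36me2 and 10.6% H3K27me3. Myc met this for the first 4, and Pvt1 for H3K4me3, H3K9ac and H3K27ac. The genes whose coverage was most like that of Myc, by the sum of the absolute differences over the 12 lists, were Cramp1l (1454 bp), Gm5914 (1470 bp), Id2 (1513 bp), Ift140 (1677 bp) and 4930456A14Rik (1711 bp), where the median gene differed by 24312 bp. For Pvt1 they were Mndal (1168 bp), Elovl6 (1178 bp), Set (1274 bp), Actn1 (1290 bp) and Rps16 (1384 bp), against a median of 14531 bp. Cramp1l and Ift140, both on chromosome 17, had the same ATAC-seq coverage of 1022 and 1300 bp.

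The body of Pvt1 was filled by H3K36me2. It covered 174 kb of the gene (78.5%) in replicate 1 and 166 kb (74.8%) in replicate 2, and H3K27me3 covered none. With replicates merged, ATAC-seq covered 0.433% of these 222 kb, near the 0.418% of the genome. An ATAC-seq site at 121.3 kb, 298 bp in replicate 1 and 263 bp in replicate 2, lay within H3K36me2 in both replicates and touched none of H3K4me3, H3K9ac and H3K27ac. A further site at 184.2 kb, 394 bp wide, was listed in replicate 2 only, beside H3K27ac intervals of 511 bp in replicate 1 and of 237 and 420 bp in replicate 2. Just past the end of the gene, at 279.9 kb, H3K27ac was listed once more, with 345 and 466 bp.

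The gene desert from the end of Pvt1 to Gsdmc measured 1520 kb of the 2510 kb described. It held 42 of the 49 merged H3K27ac sites of the region, and 28 of these 42 were pieces of 1 cluster. It also held 11 of 14 H3K4me3 sites, 17 of 22 H3K9ac sites and 5 of 12 ATAC-seq sites. Of all H3K4me3 sites in the region, 12 lay over 10 kb from any gene start that could be placed and 10 lay over 10 kb from any RefSeq gene. For H3K27ac these numbers were 43 and 35. Over the genome, 2401 of 28325 merged H3K27ac sites lay over 10 kb from any gene, and genome shares for the other counts were not taken. The starts of 11 of the 29 genes could be placed, so the count over any gene is the firmer of the pair.

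H3K27ac sites in the desert were not spread evenly. When H3K27ac intervals up to 10 kb apart were joined, the region gave 10 clusters, and the longest ran from 1256.1 to 1306.9 kb after the start of Myc, chr15:63241398-63292288. It spanned 50.9 kb with 28 merged intervals that covered 37.1 kb, and ranked 12 by span, 2 by base pairs covered and 3 by number of intervals among 14109 clusters of the genome, whose median span was 1.76 kb. In replicate 1 alone it spanned 50.9 kb and in replicate 2 alone 49.3 kb, and it ranked 2 by base pairs covered in each. With gaps of up to 20 kb joined it ranked 280 by span and 4 by base pairs covered, and with gaps of up to 1 kb its span was 31.9 kb, ranked 4, and its covered base pairs ranked 6. This cluster and those at the starts of Myc and Pvt1 were therefore of very different size, since the cluster at Myc spanned 5.98 kb and that at Pvt1 2.59 kb.

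Inside the long cluster, H3K27ac covered 34.3 kb in replicate 1 and 35.3 kb in replicate 2, which is 67.5% and 69.3% of its span. H3K9ac covered 14.5 kb in each replicate, and H3K4me3 8.36 and 7.5 kb. ATAC-seq covered 0.466 and 1.35 kb in 2 and 4 sites, and H3K27me3 covered nothing. H3K36me2 covered 35.7 kb (70.1%) in replicate 1 and 27.2 kb (53.4%) in replicate 2.

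The left part of the cluster carried marks that are usual for a gene start, in a place without an annotated one. Its widest H3K4me3 site ran from 1263.7 to 1269 kb and measured 5323 bp, which ranked 165 of 18471 in the genome and came second to the site at Myc within the region. It was listed as 2 intervals of 4358 and 870 bp in replicate 1 and as 1 interval of 5093 bp in replicate 2. On the same place lay the widest H3K27ac site of the region, 6842 bp, ranked 92 of 28325, and its widest H3K9ac site, 4112 bp, ranked 284 of 20637. The nearest RefSeq gene, Gm41335, a long non-coding RNA gene, was 98.9 kb away. No ATAC-seq interval touched this H3K4me3 site in either replicate.

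ATAC-seq sites stood in the right part of the cluster. A site at 1294.5 kb, 253 bp in replicate 1 and 370 bp in replicate 2, touched H3K4me3, H3K9ac and H3K27ac in both replicates. Another at 1302 kb, 213 and 200 bp, touched H3K27ac and neither of the other 2 marks. Sites at 1285.1 kb (345 bp) and at 1300.6 kb (437 bp) were listed in replicate 2 only. The accessible sites and the widest H3K4me3 site of the cluster thus lay in different parts of it.

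**Figure D4:**
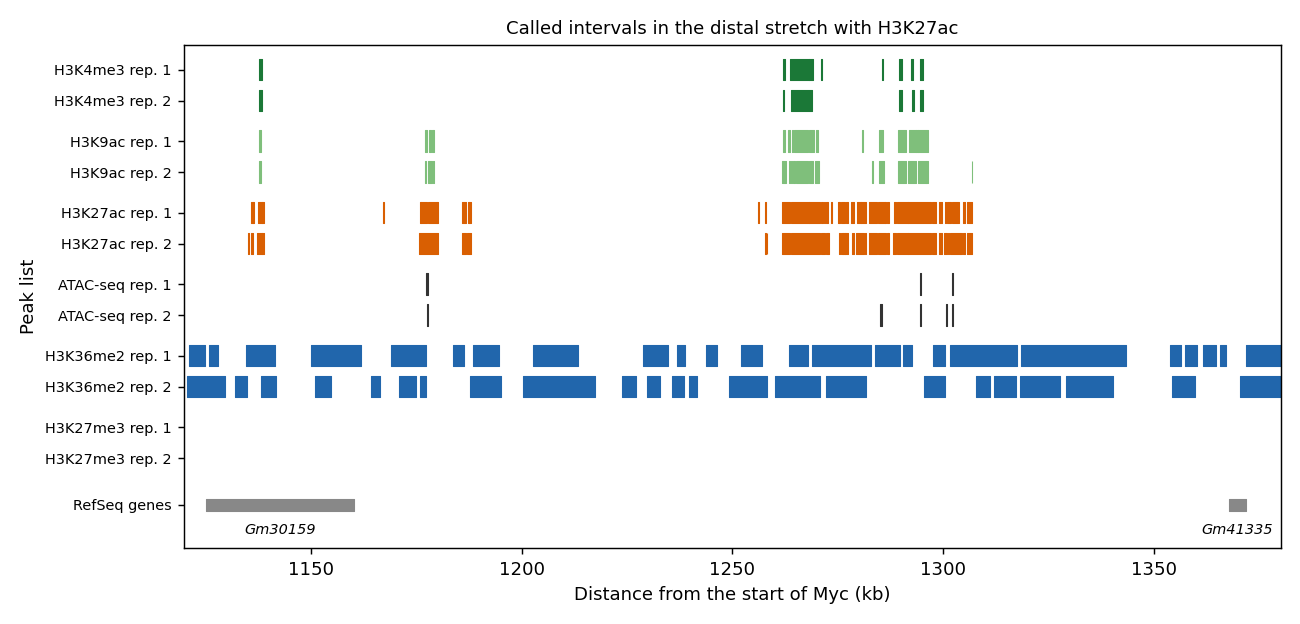
Intervals of the 12 lists around the long H3K27ac cluster (x axis, distance from the start of Myc in kb), 1 row for each replicate, with RefSeq genes in grey. H3K27ac is dense between 1261.8 and 1306.9 kb, the widest H3K4me3 site lies at its left, and the ATAC-seq sites lie at its right.

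Nearer to Myc, a second acetylated stretch ran from 1167.1 to 1188 kb and spanned 20.9 kb, with 6.38 kb covered by H3K27ac. It held an ATAC-seq site at 1177.4 kb in both replicates (395 and 295 bp), flanked by H3K9ac, and no H3K4me3. Replicate 2 listed this stretch from 1175.7 kb on only. Another cluster, from 1135.1 to 1138.8 kb, lay inside the long non-coding RNA gene Gm30159, 21.3 kb from its start, with H3K4me3 of 687 and 718 bp and H3K9ac of 576 and 589 bp but no ATAC-seq site. The others were small: those at 279.9, 749.5 and 1666.8 kb held 1 merged H3K27ac interval, and that at 823.3 kb held 2. The cluster at 749.5 kb carried H3K4me3 in both replicates, with 504 and 675 bp, and H3K9ac in replicate 1 only.

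A pair of enhancer regions described in blood cells served as reference windows, with their place taken from general knowledge rather than from the files. N-Me, an enhancer of Myc in T cells that responds to Notch1, was taken as the window from 1200 to 1400 kb, and BENC, an enhancer cluster used in blood stem and progenitor cells, as that from 1600 to 1800 kb. In the N-Me window, H3K27ac had 30 intervals with 34.3 kb in replicate 1 and 29 with 35.3 kb in replicate 2, all in the long cluster. In the BENC window it had 1 interval in each replicate, of 260 and 465 bp, and ATAC-seq, H3K4me3 and H3K9ac had none. BENC held both broad marks side by side, with 31 and 36.4 kb of H3K36me2 and 36.8 and 39 kb of H3K27me3, since the far border of the long H3K36me2 domain fell inside it. The windows differed in H3K27ac by far more than their replicates did. Both were set at round distances with earlier results of these data known, so this difference is a description and tests neither enhancer.

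Few acetylated sites of the region coincided with an accessible site, a description with no test. Of the 49 merged H3K27ac sites, 8 (16.3%) touched an ATAC-seq site by at least 1 bp, where 55.4% did over the genome. Replicate 1 alone gave 5 of 53 (9.43%, genome 51.3%) and replicate 2 alone 7 of 48 (14.6%, genome 53.5%). In the other direction 9 of the 12 ATAC-seq sites (75%) touched H3K27ac, against 82.1% over the genome. Of the 8 touching sites, 3 lay inside Myc or Pvt1. Among the sites over 10 kb from any RefSeq gene, 5 of 35 (14.3%) touched an ATAC-seq site, against 39.5% of such sites over the genome. Many of the 49 sites are pieces of 1 cluster and not independent. With intervals up to 1000 bp apart joined, 5 of 16 sites (31.2%) touched an ATAC-seq site in the region and 71.6% over the genome.

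Shares below those over all sites of the genome were also found for the other narrow marks. H3K4me3 touched ATAC-seq at 3 of 14 sites (21.4%, genome 74.6%) and H3K9ac at 6 of 22 sites (27.3%, genome 70.3%). Of these sites, 12 and 17 lay over 10 kb from any gene start placed, and 7 and 12 lay in the long cluster. Genome shares limited to such distant sites were not taken for any pair of sets in this paragraph, so the part of place in these differences was not tested. H3K27ac touched H3K4me3 at 15 of 49 sites (30.6%, genome 64.8%) and H3K9ac at 16 of 49 (32.7%, genome 65.6%). With H3K36me2 the share was above that of the genome, as 44 of 49 merged H3K27ac sites (89.8%) touched it against 58.8%. The size of this difference varied between replicates, with 40 of 53 sites (75.5%, genome 48.3%) in replicate 1 and 28 of 48 (58.3%, genome 46.6%) in replicate 2. None of the H3K27ac sites touched H3K27me3, where 0.635% did over the genome, so a count of 0 lay near the background.

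The ATAC-seq replicates differed in number. ATAC-seq listed 7 sites in replicate 1 and 12 in replicate 2, and all 7 were found again in replicate 2. The shared fraction of base pairs was 0.468 in the region and 0.66 over the genome. For H3K4me3 it was 0.874 and 0.922, for H3K9ac 0.823 and 0.869, and for H3K27ac 0.851 and 0.865.

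Before Myc, over 500 kb, the lists held no H3K36me2, and no narrow site beyond those that adjoin the start of Myc. The long non-coding RNA gene D030024E09Rik lay there, with H3K27me3 over 83.5% of the gene in replicate 1 and 65.5% in replicate 2. At the other end, the Gsdmc genes, which encode pore-forming gasdermin proteins, lay in the second H3K27me3 domain. It covered 34.7% and 40.8% of Gsdmc and 25.7% and 20% of Gsdmc3, and Gsdmc2 had it in replicate 1 only. Gsdmc4 had H3K27me3 over 8.78% and 15.4% of its length and in addition an H3K4me3 interval at 1910.4 kb, 304 and 376 bp wide, that touched no other mark. Cyrib, a regulator of the actin cytoskeleton at the right edge, had H3K36me2 over 60.4% and 58.7% of the gene, and its H3K4me3 lay past the region. The last ATAC-seq site of the region, 275 bp wide, was listed within Cyrib in replicate 2 only.

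Of the 29 genes, 8 were touched by H3K36me2 in both replicates and 9 by H3K27me3, where 26.5% and 14.0% of all 49554 genes were. H3K4me3 touched 5 in both replicates, H3K9ac and H3K27ac 4 each, and ATAC-seq 3, beside 27.7%, 26.5%, 27.5% and 23.7% of all genes. Genes differ in length, which these shares do not take into account. Among the 11 genes whose start could be placed, Myc and Pvt1 were the ones with H3K4me3, H3K9ac and H3K27ac in the start window in both replicates.

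Promoter sequences from RefSeq (GRCm38.p6) were found for 9 of the 29 genes, as 300 bases from 250 before to 50 after the start. Those of 3 long non-coding RNA genes, none touched by H3K4me3, H3K9ac, H3K27ac or ATAC-seq, are shown side by side. The sequences differ in the broad marks listed on them and are written 5′ to 3′ on the strand of the gene, with CG in capitals. D030024E09Rik (chr15:61774402-61774701, minus strand) lay in H3K27me3 in both replicates. Gm41335 (chr15:63356977-63357276, minus strand), the gene nearest to the widest H3K4me3 site of the long cluster, lay in H3K36me2 in replicate 2. In replicate 1 an H3K36me2 interval that began at position 63357201 touched the promoter but not the start of the gene. 4930449C09Rik (chr15:63718098-63718397, plus strand), in the BENC window, touched no interval of any list.
D030024E09Rik: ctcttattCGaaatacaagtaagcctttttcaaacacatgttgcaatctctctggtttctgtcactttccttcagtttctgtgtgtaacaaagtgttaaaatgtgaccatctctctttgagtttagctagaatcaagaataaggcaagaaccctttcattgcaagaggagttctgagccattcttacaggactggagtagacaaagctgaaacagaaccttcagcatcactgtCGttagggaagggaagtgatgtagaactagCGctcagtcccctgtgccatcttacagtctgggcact
Gm41335: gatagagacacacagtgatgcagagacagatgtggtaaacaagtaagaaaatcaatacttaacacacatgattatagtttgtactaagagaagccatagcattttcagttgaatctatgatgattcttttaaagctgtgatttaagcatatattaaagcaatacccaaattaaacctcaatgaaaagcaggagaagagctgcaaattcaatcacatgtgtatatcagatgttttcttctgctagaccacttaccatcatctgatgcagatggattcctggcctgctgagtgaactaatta
4930449C09Rik: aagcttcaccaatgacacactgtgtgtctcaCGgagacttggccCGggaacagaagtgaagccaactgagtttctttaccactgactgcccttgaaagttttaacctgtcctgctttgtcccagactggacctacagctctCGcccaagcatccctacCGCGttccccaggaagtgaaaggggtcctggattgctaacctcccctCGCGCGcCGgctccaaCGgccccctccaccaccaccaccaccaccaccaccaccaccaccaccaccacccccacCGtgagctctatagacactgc
The motif CG, which reads the same on both strands, occurred 3 times in D030024E09Rik, 0 times in Gm41335 and 11 times in 4930449C09Rik, where the median of 32851 promoters is 7. At least as many were found in 76.7%, 100% and 41.4% of all promoters. The most CG-rich of these 3 promoters thus carried neither H3K4me3 nor H3K27me3. It lay in a gap within the span of the second H3K27me3 domain, and H3K27me3 covered 13.7% of its gene in replicate 1 and 0% in replicate 2.

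Genes whose products work with MYC were examined in the same start windows. Max encodes the partner of MYC. Mxd1, Mxi1, Mxd3, Mxd4, Mnt and Mga encode proteins that compete for MAX, and Mlx, Mlxip and Mlxipl their relatives. Zbtb17, Wdr5, Trrap and Ep400 encode partners of MYC in repression and activation, and Mycn and Mycl its paralogs. Of these 16 genes, 11 (68.8%) had H3K4me3 in both replicates, and the same 11 had H3K9ac, H3K27ac and ATAC-seq, beside 35.0%, 34.5%, 35.1% and 31.0% of all genes. Among protein-coding genes alone these shares were 45.3%, 44.6%, 45.0% and 40.6%.

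Among them, the coverage at Mnt was closest in size to that at Myc, with H3K4me3 over 70.7% and 70.3% of the window, where Myc had 76.4% in both replicates. Max had 51.4% in both replicates, near the 48.3% and 47.9% of Pvt1. No gene of the list exceeded Myc in H3K4me3. The paralogs Mycn and Mycl had no interval of any set in their windows.

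Mxd4 and Mga also lacked the marks of active starts, and Mlxipl, which encodes a glucose-responsive factor, was the gene of the list with H3K27me3, over 80% and 100% of its window. H3K36me2 was listed in both replicates at 8 of 16 (50%), beside 21.9% of all genes and 24.4% of protein-coding ones, and H3K27me3 at 1 of 16 (6.25%), beside 10.6%. Within 1 kb either side of the start H3K36me2 was listed at 5 of 16, beside 13.0% of all genes. A gene entry has 1 outer start here, and Mga had H3K4me3, H3K9ac, H3K27ac and ATAC-seq in both replicates when any start in the promoter table counted, which gave 12 of 16 genes.

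**Figure D5:**
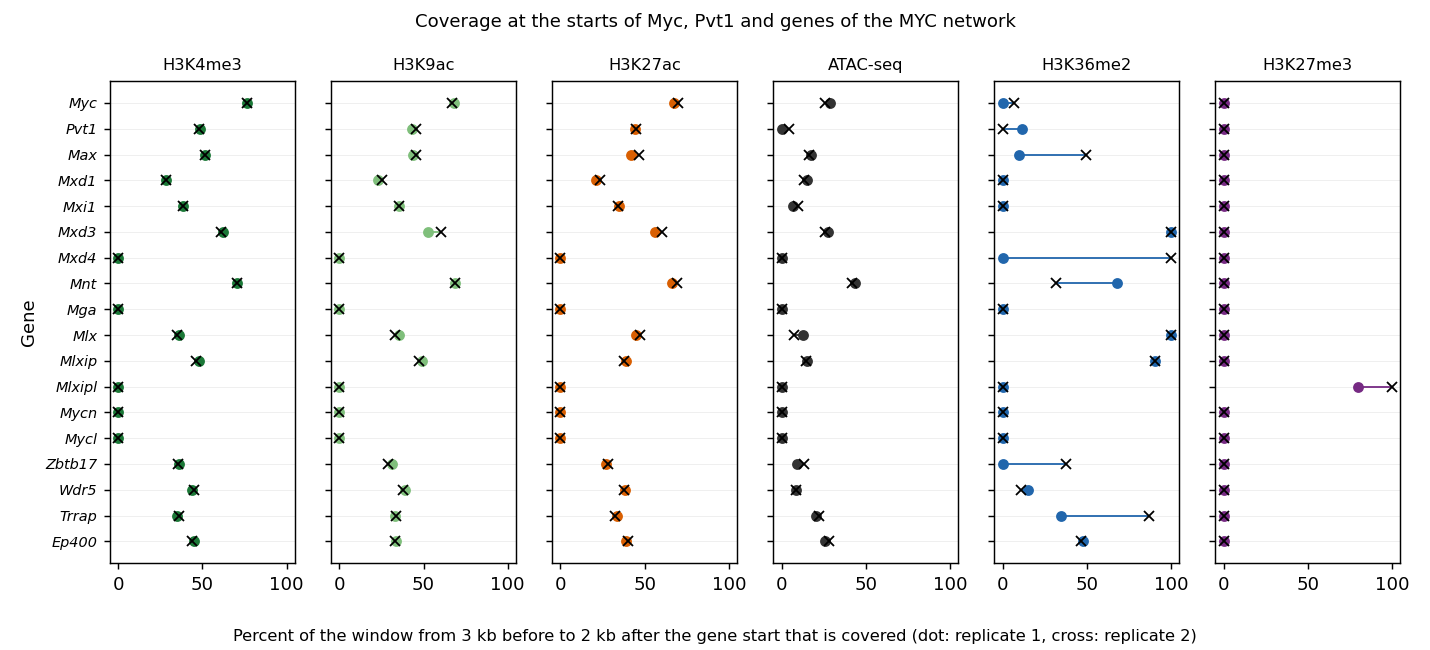
Percent of the window from 3 kb before to 2 kb after the gene start covered by each set (x axis) for Myc, Pvt1 and the 16 genes of the MYC network (y axis), with replicate 1 as a dot, replicate 2 as a cross and a line between them. Myc has the highest H3K4me3 coverage of these genes, 76.4% in both replicates, and replicates lie farther apart for H3K36me2 than for the other sets.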

How the data were processed

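Per the labels and the methods of the study, the authors aligned reads to GRCm38 with STAR 2.5, kept unique alignments and handled duplicates with Picard. They called narrow peaks (H3K4me3, H3K9ac, H3K27ac and ATAC-seq) with MACS2 and broad intervals (H3K36me2 and H3K27me3) with Epic, each replicate on its own, with an input control for ChIP-seq. The methods state that reads on the sex chromosomes were discarded, but the lists hold intervals on chromosome X. Tagmentation time differs between labels and methods. The deposited lists give the start and end of each interval in base pairs, with no score, ratio or count. Of 15 samples, 12 have lists, and the input and RNA-seq samples are not used here.

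Intervals were read with Python 3.11.15 and numpy 2.4.6 and written with positions from 1. Merged lists join intervals of both replicates that overlap or adjoin. Touching means at least 1 bp shared. The shared fraction is the base pairs in both replicates divided by those in either. Clusters join H3K27ac intervals up to 10 kb apart. Gene positions are from RefSeq (GRCm38.p6), of whose 49554 genes 26796 had a strand, read from the promoter table. The strand of Myc and Pvt1, both toward higher coordinates, was taken from general knowledge. The interval functions gave the known answers on 5 simulated sets and the same counts as bedtools 2.31.1 for 30 pairs of sets. Windows of the region's length were laid end to end over chromosomes 1 to 19 and X. Figures were drawn with matplotlib 3.10.9.

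Named were Myc, Pvt1, the protein-coding genes of the stretch and those touched in both replicates, the 5 genes nearest to each member by coverage, a list of 16 MYC network genes, markers of 3 lineages, and the N-Me and BENC windows. Genes shown for their promoter sequence and the sites singled out in the clusters were chosen after their values were seen. Members, lists and the N-Me and BENC windows were chosen with earlier results of these data known. With 2 replicates and no counts, no test was run.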

Additional observations from a re-analysis of the deposited data

How the results depend on the processing

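No paired analysis was possible because the lists hold positions without counts and no result comes from a test. Depth is unknown, so a mark missing from a list may be present below the callers' thresholds. Of 157 values recomputed for 48 results, 85 stayed within 1.5 times the count, or within 1 SD of the replicates for covered kb and percent, and 72 did not. H3K27me3 and H3K36me2 overlapped by 0 bp also with intervals up to 1000 bp apart joined, and the other alternatives, as parts of the merged lists, could give no other value.

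With the intersection of both replicates, ATAC-seq kept 7 sites and 2.14 kb, H3K27me3 had 67 sites and 341 kb, and H3K36me2 402 kb. H3K4me3 then covered 17.6 kb, H3K9ac 22 kb and H3K27ac 48.6 kb, with 5 H3K27ac sites on ATAC-seq sites. With merged intervals that both replicates touch, ATAC-seq had 7 sites and 2.89 kb, H3K36me2 74 sites and 771 kb, H3K27me3 457 kb, H3K4me3 19.2 kb, H3K9ac 25.8 kb and H3K27ac 54.3 kb, with 4 H3K27ac sites on ATAC-seq sites. With a single replicate the ranges were 18.5 to 19.3 kb for H3K4me3, 24.3 to 24.4 kb for H3K9ac, 51.5 to 54.2 kb for H3K27ac, 2.6 to 4.11 kb for ATAC-seq, 691 to 708 kb for H3K36me2 and 407 to 418 kb for H3K27me3. Without replicate 2 there were 7 ATAC-seq sites and without replicate 1 there were 12, for H3K27me3 62 and 45, for H3K27ac sites on ATAC-seq sites 5 and 7, and the longest cluster spanned 50.9 and 49.3 kb.

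With intervals up to 1000 bp apart joined, H3K27ac had 16 sites and 68.1 kb, H3K9ac 11 sites and 29.2 kb, H3K36me2 1020 kb, and 5 H3K27ac sites lay on ATAC-seq sites. With intervals of at least 500 bp, H3K4me3 had 8 sites and 18.2 kb, H3K9ac 23.6 kb, H3K27ac 29 sites and 50.4 kb, and ATAC-seq 1 site of 0.816 kb, on 1 H3K27ac site. After the end of Pvt1 alone there were 6 ATAC-seq sites with 2.07 kb, 13 H3K27me3 sites with 92.8 kb, 10.9 kb of H3K4me3, 18.8 kb of H3K9ac, 48.8 kb of H3K27ac and 773 kb of H3K36me2.

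Against windows of chromosome 15 only, 31.7% held at least as much H3K27ac and 56.1% as much H3K27me3 as the Myc region. With gaps of up to 1 kb the region had 16 clusters, and the longest spanned 31.9 kb, ranked 4 by span and 6 by base pairs covered. With gaps of up to 20 kb it ranked 280 by span and 4 by base pairs covered. In windows of 1 kb either side of the start, H3K4me3, H3K9ac and H3K27ac covered 100% at Myc, with 38.2% for ATAC-seq. At Pvt1 they covered 70.2%, 68.5% and 68.9%, with 0% for ATAC-seq, and 5 network genes had H3K36me2. The count with any start in the promoter table, and the 5 H3K27ac sites on ATAC-seq sites among those over 10 kb from any gene, were chosen after the data were seen. The cause of these differences was not tested.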
